A study of Mus musculus with 12 samples.

Results

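The 10 genes described here encode small GTPases related to Ras and exchange factors that switch on Ras or its relative Rap. They are Rasd1, Rasd2, Rrad, Gem, Rem2, Rasgrp1, Rasgrp2, Rasgrp3, Rasgrf1 and Rasgrf2. They were chosen by gene symbol, with earlier results of these data known, from the 52169 gene symbols of the deposited transcript table. All 10 were found, with 70 transcripts between them, and each is represented by the transcript with the highest mean level over the 12 libraries. All 10 passed the filter on low counts in each of the 5 comparisons made. The RNA came from the striatum of C57BL/6J mice in which dopamine axons on the right side had been destroyed by 6-OHDA, a toxin taken up by catecholamine neurons, injected into the medial forebrain bundle. Every animal received desipramine (25 mg/kg) before the toxin to spare noradrenergic neurons, recovered for 2 weeks and was then given L-DOPA (10 mg/kg), the precursor of dopamine, with benserazide (7.5 mg/kg), which blocks its conversion outside the brain. The acute groups were injected once and the chronic groups daily for 9 days, and the tissue was taken 1 hour after the last injection. The lesioned and the unlesioned striatum of each treatment gave 3 libraries each, so the 4 groups were acute lesioned, acute unlesioned, chronic lesioned and chronic unlesioned. The age of the mice is not given in the sources used here, and every group carried L-DOPA, so no library shows the lesion without the drug. The series text counts 12 mice for the 12 libraries, whereas the study describes the unlesioned side as the control within each mouse, so how many mice the libraries stand for is not settled.

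Ras proteins are molecular switches that are active when bound to GTP and pass signals from receptors to the Erk kinase cascade. Guanine nucleotide exchange factors load them with GTP. Most RasGRP proteins do so in response to diacylglycerol, and most of them also bind calcium, whereas RasGRF proteins respond to calcium through calmodulin. In medium spiny neurons, the projection neurons of the striatum, dopamine D1 receptors and glutamate receptors act together on Ras and Erk, and sensitised Erk signaling is a known feature of the dopamine-depleted striatum exposed to L-DOPA. Rasd2, also called Rhes, is a striatum-enriched GTPase, and its relative Rasd1, or Dexras1, is induced by glucocorticoids. Rrad, Gem and Rem2 belong to the RGK family, whose members bind the beta subunit of voltage-gated calcium channels and reduce calcium current.

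The total over all transcripts ran from 87695043 to 173116525 counts per library, with a read counted on every transcript it overlapped. Levels are given as CPM, the usual scaling of counts to a common library total, with TMM factors, and changes as log2 fold changes with their standard error (SE) from edgeR's quasi-likelihood test, called at a Benjamini-Hochberg adjusted p under 0.05 over all transcripts tested. The summed level of 10 markers of medium spiny neurons, the main neurons of the striatum, ran from 1817 to 2445 CPM over the 12 libraries, but single markers moved with the lesion: 5 of the 10 rose and 4 fell after acute, and 2 rose and 1 fell after chronic L-DOPA. Drd1a, the dopamine D1 receptor, fell by 2.30 (SE 0.10, adjusted p = 1.36e-08) and 1.32 (SE 0.13, adjusted p = 0.000101), and Penk, the enkephalin precursor, rose by 0.94 (SE 0.07, adjusted p = 5.81e-06) and 1.12 (SE 0.11, adjusted p = 8.90e-05), all log2 fold changes. The part of these changes in the members' values was not tested. The summed level of 4 choroid plexus markers was 466 CPM in chronic unlesioned library 2 and between 0.599 and 3.03 CPM in the other 11 libraries. Both chronic libraries numbered 2 stood apart for Rasgrf1, as given with that gene, and results that rest on them are also given without one or both of them. In these tissue pieces, fewer cells of a type and less RNA per cell cannot be told apart.

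On a scale corrected for transcript length (CPM per kilobase), the 10 genes spanned a wide range in the striatum. Rasd2 was the highest, with a mean over the 12 libraries of 65.9 ± 12.4 CPM per kilobase (SD, n = 12), and its lowest library (40.9) exceeded the highest library of every other member. Rasgrp1 followed at 25.6 ± 4.68, Rasgrp2 at 18.1 ± 4.23, Rasgrf1 at 12.6 ± 4.13 and Rem2 at 10.7 ± 3.10 CPM per kilobase, and the ranges of each neighbouring pair among these overlapped. A gap separated Rem2, whose lowest library held 7.13 CPM per kilobase, from Rasd1, whose highest held 2.22. Rasd1 (1.26 ± 0.473), Rasgrf2 (0.906 ± 0.281), Rasgrp3 (0.779 ± 0.211), Gem (0.503 ± 0.397) and Rrad (0.195 ± 0.161 CPM per kilobase) made up the low end, again with overlapping neighbours. The SD of Gem and of Rrad was close to the mean because their levels differed between groups.

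**Figure D1:**
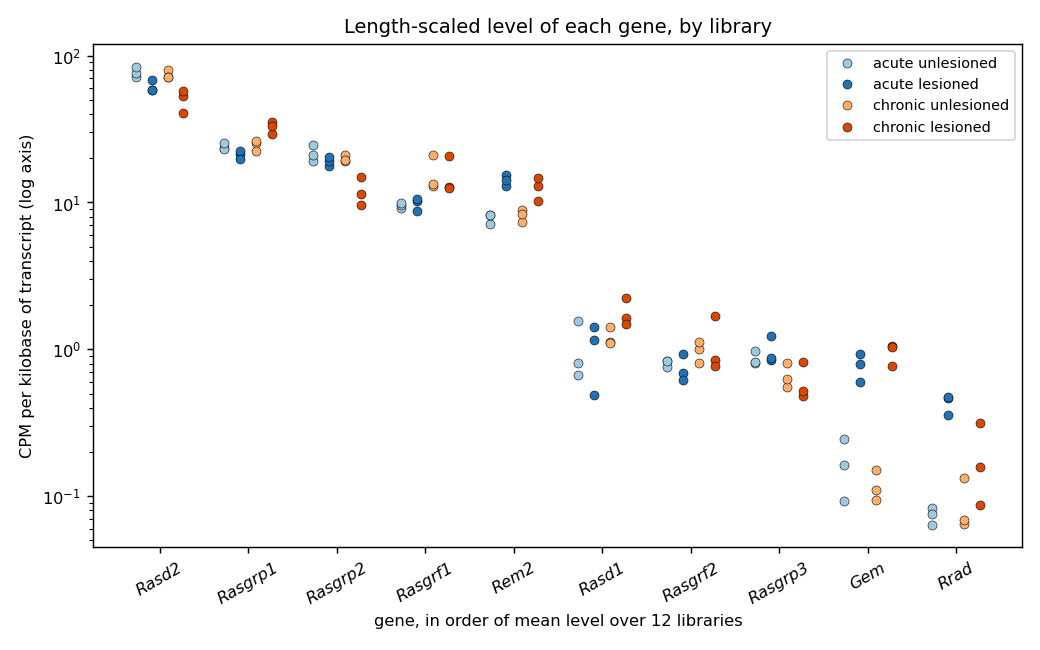
Length-scaled level of the 10 genes (vertical axis, CPM per kilobase, log axis) in the 12 libraries, ordered by the mean over all libraries; each point is 1 library and the colour gives its group. Rasd2 stands above all other members, and Gem and Rrad, at the low end, spread the most between groups.

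Of the 10 genes, Rasd2 and Rrad share chromosome 8 and the others lie on different chromosomes. In mm9, the transcripts used were Rasd1 (NM_009026, chr11:59776683-59778444, minus strand), Rasd2 (NM_029182, chr8:77737843-77748012, plus strand), Rrad (NM_019662, chr8:107151966-107155221, minus strand), Gem (NM_010276, chr4:11631594-11642140, plus strand) and Rem2 (NM_080726, chr14:55094937-55099271, plus strand). The exchange factors were Rasgrp1 (AK141524, chr2:117105730-117168737, minus strand), Rasgrp2 (ENSMUST00000035716, chr19:6400562-6415216, plus strand), Rasgrp3 (NM_001166493, chr17:75835245-75928394, plus strand), Rasgrf1 (NM_011245, chr9:89804613-89921817, plus strand) and Rasgrf2 (NM_009027, chr13:92020012-92127647, minus strand). Each of them is a protein-coding gene on the same strand in the GENCODE vM1 annotation of the same build. Only Rasgrp2 shares exonic bases with another annotated gene, 265 bases with Gm14965 on the opposite strand, and the sources do not state a strand-specific count, so reads of the pair cannot be told apart there.

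Promoters, from 250 bases before to 50 bases after the start site, were present in the RefSeq table used (GRCm38.p6) for 7 of the 10 genes. Rasd1, Rrad and Gem had no entry. The entries were searched on both strands for letters bound by factors downstream of Erk and cAMP signaling: the cAMP response element TGACGTCA, the shorter core TGACG, which the full site contains, the AP-1 site TGAGTCA, the Egr core GCGTGGG and the CArG box. Over all 32851 promoters of this length, 1.79% held TGACGTCA, 20.8% TGACG, 5.20% TGAGTCA, 5.04% GCGTGGG and 1.63% the CArG box. Among the 9 promoters of the 7 genes, the core was found in 2 and none of the other letters in any. Rem2 and Rasgrp1 are shown because their RNA was called higher in a lesion comparison described below, and Rasgrf1 and Rasgrf2 because they held the core TGACG, which is in capitals (CGTCA is TGACG read on the other strand). In Rasgrf1 its first base lay 145 bases before the start and in Rasgrf2 it lay 43 bases before. The windows are chr14:54475850-54476149 (plus strand) for Rem2, chr2:117342828-117343127 (minus strand) for Rasgrp1, chr9:89909525-89909824 (plus strand) for Rasgrf1 and chr13:92131779-92132078 (minus strand) for Rasgrf2, each printed 5′ to 3′ along its gene.
Rem2: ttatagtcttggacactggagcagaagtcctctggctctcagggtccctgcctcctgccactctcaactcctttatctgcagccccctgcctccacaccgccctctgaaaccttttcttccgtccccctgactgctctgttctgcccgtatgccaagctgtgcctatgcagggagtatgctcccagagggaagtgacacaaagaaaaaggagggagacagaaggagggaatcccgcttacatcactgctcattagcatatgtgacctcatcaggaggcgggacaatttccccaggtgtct
Rasgrp1: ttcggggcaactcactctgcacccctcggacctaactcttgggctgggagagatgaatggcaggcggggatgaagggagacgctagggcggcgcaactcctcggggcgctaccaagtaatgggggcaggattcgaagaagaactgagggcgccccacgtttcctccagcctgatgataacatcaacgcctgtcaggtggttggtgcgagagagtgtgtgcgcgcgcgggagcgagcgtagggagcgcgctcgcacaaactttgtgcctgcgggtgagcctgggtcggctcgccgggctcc
Rasgrf1: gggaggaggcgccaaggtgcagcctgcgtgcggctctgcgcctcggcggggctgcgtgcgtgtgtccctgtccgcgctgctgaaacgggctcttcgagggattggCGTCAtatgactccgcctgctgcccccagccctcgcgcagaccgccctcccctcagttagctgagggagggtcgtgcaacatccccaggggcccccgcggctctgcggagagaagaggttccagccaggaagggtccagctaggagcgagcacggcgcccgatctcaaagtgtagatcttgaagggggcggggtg
Rasgrf2: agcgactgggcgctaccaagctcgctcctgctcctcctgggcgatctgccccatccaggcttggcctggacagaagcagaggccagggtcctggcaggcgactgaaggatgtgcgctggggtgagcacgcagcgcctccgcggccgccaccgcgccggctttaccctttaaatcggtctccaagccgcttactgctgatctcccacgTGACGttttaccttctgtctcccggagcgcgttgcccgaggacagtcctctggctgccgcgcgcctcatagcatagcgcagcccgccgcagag

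The first question was which of these genes differed between the lesioned and the unlesioned striatum after a single dose. Of the 10 genes, 3 rose (Rrad, Gem and Rem2) and 1 fell (Rasd2), beside 8.16% of all genes tested that were called higher and 7.16% called lower. The 3 that rose are the 3 RGK genes among the 10 members. Rem1, also an RGK gene, is not among the 10. It was counted with the other Ras-like GTPases below, where the acute rises were those of Rasl11a and Rheb. Glial markers also moved in this comparison: 3 of 8 microglial and 2 of 7 astrocyte markers rose (5 and 5 with the replicate block), and their part in the members' values was not tested. The median log2 fold change of the 10 was 0.02, and that of all genes tested was 0.02. After chronic treatment, 3 rose (Gem, Rem2 and Rasgrp1) and 2 fell (Rasd2 and Rasgrp2), beside 8.46% of all genes called higher and 5.20% lower. The median of the 10 was 0.29 and that of all genes -0.01. Same-numbered libraries of the same treatment deviated together, and with the number as a block the counts were 3 rises and 2 falls after acute and 5 rises and 2 falls after chronic L-DOPA. In the same fits 13.2% of all genes were called higher and 11.8% lower after acute, and 12.8% and 11.4% after chronic treatment. The block added Rasgrp2 among the acute falls and Rasd1 and Rrad among the chronic rises. Without both chronic libraries numbered 2, 5 members were called in the chronic comparison. The share of all genes was not computed for that fit.

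**Figure D2:**
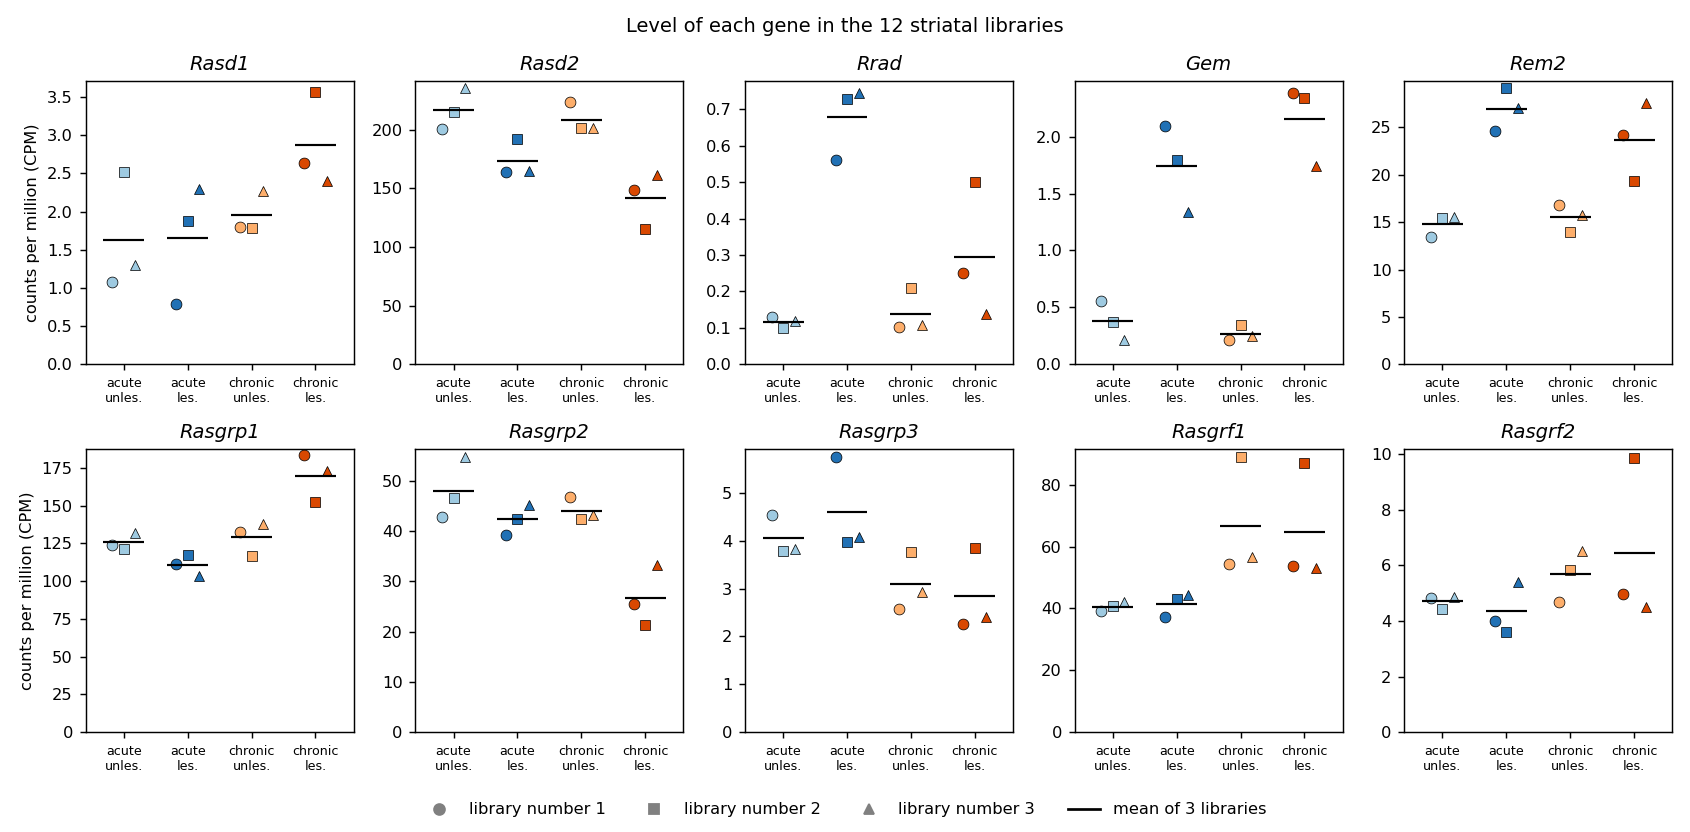
Level of each gene (vertical axis, CPM, starting at 0) in the 4 groups; a point is 1 library, its shape gives the library number and the line marks the mean of 3 libraries. Gem and Rem2 were higher in every lesioned than in every unlesioned library of the same treatment, Rasd2 was lower, and Rasgrf1 was highest in both chronic libraries numbered 2.

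Gem had the largest log2 fold change of the 10 after chronic L-DOPA. Its level was 0.553, 0.367 and 0.210 CPM in the acute unlesioned libraries and 2.09, 1.79 and 1.34 CPM in the acute lesioned ones. After chronic treatment it was 0.212, 0.342 and 0.249 CPM in the unlesioned and 2.38, 2.34 and 1.74 CPM in the lesioned striatum. Every lesioned library lay above every unlesioned one, in both treatments. The log2 fold change was 2.18 (SE 0.26, adjusted p = 0.000188), or 4.52-fold, after a single dose and 3.00 (SE 0.20, adjusted p = 5.48e-06), or 8.0-fold, after 9 days. The increase of the lesion effect by 0.82 did not pass the test (SE 0.39, 95% interval -0.01 to 1.66, adjusted p = 0.272). Without each library in turn it ran from 0.41 to 1.09, with adjusted p-values from 0.113 to 0.622. All 6 transcripts of Gem, which can share reads and are not separate evidence, were called higher in both lesion comparisons. These levels rest on 28 to 97 counts in the acute unlesioned libraries and 144 to 276 in the acute lesioned ones.

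Rrad, another RGK member, had the lowest level of the 10 and the largest acute change. It stood at 0.131, 0.101 and 0.120 CPM in the acute unlesioned striatum and at 0.561, 0.729 and 0.745 CPM in the acute lesioned striatum. The groups did not overlap, and the log2 fold change was 2.51 (SE 0.22, adjusted p = 1.34e-05), a 5.68-fold rise on 63 to 80 counts against 14 to 23. After chronic treatment the unlesioned libraries held 0.101, 0.209 and 0.108 CPM and the lesioned ones 0.251, 0.499 and 0.137 CPM. Here the groups overlapped, because lesioned library 3 lay below unlesioned library 2. The chronic log2 fold change of 1.09 (SE 0.47) had an adjusted p of 0.171 without and 0.0268 with the replicate block. It ran from 0.46 without chronic lesioned library 2 (adjusted p = 0.548) to 1.49 without chronic unlesioned library 2 (adjusted p = 0.0895). Its log2 ratio within the same library number was 1.31, 1.26 and 0.35.

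Within the lesioned striatum Rrad fell from acute to chronic treatment, by 1.18 on the log2 scale (SE 0.35, adjusted p = 0.0312), and every chronic lesioned library lay below every acute lesioned one. That call was lost without acute lesioned library 2 (adjusted p = 0.0951) or 3 (0.0808), without chronic lesioned library 1 (0.112) or 3 (0.0821), and with transcripts summed per gene (0.0682). Without chronic lesioned library 2 the value was -1.82 (adjusted p = 0.000601). The lesion effect of Rrad was lower after chronic than after acute treatment by 1.41 (SE 0.56), with an adjusted p of 0.182, and of 0.0219 with the replicate block. Without each library in turn this difference ran from -2.05 (without chronic lesioned library 2, adjusted p = 0.0175) to -1.01 (without chronic unlesioned library 2, adjusted p = 0.405).

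Rem2, the RGK member with the highest level here, changed less than Gem but with little spread. The acute unlesioned libraries held 13.4, 15.5 and 15.6 CPM and the acute lesioned ones 24.6, 29.1 and 27.0 CPM. The chronic unlesioned libraries held 16.8, 14.0 and 15.7 CPM and the chronic lesioned ones 24.3, 19.3 and 27.6 CPM. All lesioned libraries of Rem2 exceeded all unlesioned ones. The log2 fold change was 0.86 (SE 0.08, adjusted p = 1.89e-05) after acute and 0.61 (SE 0.13, adjusted p = 0.0101) after chronic treatment, or 1.82-fold and 1.53-fold. Their difference of -0.25 was not called (SE 0.16, 95% interval -0.59 to 0.10, adjusted p = 0.438). All 6 transcripts of Rem2, which can share reads and are not separate evidence, were called higher in both lesion comparisons.

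**Figure D3:**
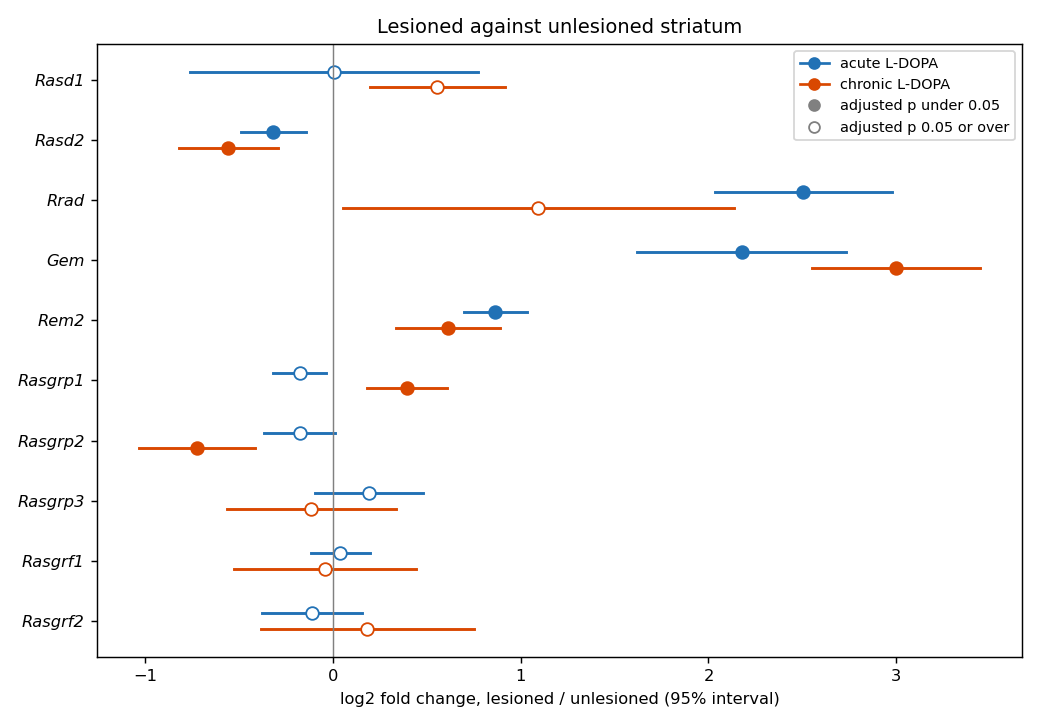
Log2 fold change of lesioned over unlesioned striatum (horizontal axis) for each gene, after acute (blue) and chronic (orange) L-DOPA, with 95% intervals from edgeR; filled points have an adjusted p under 0.05. The RGK genes Rrad, Gem and Rem2 lie to the right, Rasd2 to the left in both treatments, and the chronic points of Rasgrp1 and Rasgrp2 lie on opposite sides of 0.

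Rasd2 fell on the lesioned side in both treatments. Its level was 201, 215 and 236 CPM in the acute unlesioned libraries and 164, 192 and 165 CPM in the acute lesioned ones. The chronic unlesioned libraries held 224, 201 and 201 CPM and the chronic lesioned ones 149, 115 and 162 CPM. No lesioned library reached the lowest unlesioned one of its treatment. The log2 fold change was -0.32 (SE 0.08, adjusted p = 0.0216) after a single dose and -0.56 (SE 0.12, adjusted p = 0.0123) after 9 days, which leaves 0.802 and 0.679 of the unlesioned level. The acute call was lost in a fit over all 12 libraries (adjusted p = 0.0832) and without acute lesioned library 1 (0.0573) or 3 (0.0571) or acute unlesioned library 2 (0.0603) or 3 (0.0760). The chronic call was lost without chronic unlesioned library 1 (0.0526). The change in lesion effect, -0.24 (SE 0.15, 95% interval -0.57 to 0.09), was not called (adjusted p = 0.438).

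Rasd1, the other Rasd gene, varied widely after a single dose, with 1.08, 2.51 and 1.30 CPM in the unlesioned and 0.788, 1.87 and 2.29 CPM in the lesioned libraries. These groups overlapped, and the log2 fold change was 0.01 with an SE of 0.35 (adjusted p = 0.995). After chronic treatment the levels were 1.80, 1.79 and 2.27 CPM in the unlesioned and 2.64, 3.57 and 2.41 CPM in the lesioned striatum, with no overlap. The chronic log2 fold change of 0.56 (SE 0.16) had an adjusted p of 0.0516, and of 0.0207 with the replicate block. It also passed with DESeq2 (adjusted p = 0.0171), with DESeq2's size factors in edgeR (0.0462), with no filter on low counts (0.0380) and without chronic lesioned library 3 (0.0417). In a fit over all 12 libraries the adjusted p was 0.272. Without both chronic libraries numbered 2 it was 0.32 (adjusted p = 0.194). Of the 2 transcripts of Rasd1 tested, the transcript not used here was called higher in the chronic comparison without the block.

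Among the exchange factors, Rasgrp1, a diacylglycerol-responsive activator of Ras, differed by treatment. Its acute levels were 124, 121 and 132 CPM in the unlesioned and 112, 118 and 103 CPM in the lesioned libraries. The chronic levels were 133, 117 and 138 CPM in the unlesioned and 184, 152 and 173 CPM in the lesioned libraries. In the acute groups the lesioned libraries were all below the unlesioned ones, and in the chronic groups all above. The acute log2 fold change of -0.18 (SE 0.07) was not called (adjusted p = 0.0943), while the chronic one of 0.39 (SE 0.10) was (adjusted p = 0.0237). That chronic call was lost without chronic lesioned library 1 (adjusted p = 0.103) or 3 (0.0840), or chronic unlesioned library 1 (0.0622) or 2 (0.0633).

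The difference between the lesion effects on Rasgrp1 was 0.58 (SE 0.12, adjusted p = 0.0104). Rasgrp1 was the single member called in this test, and the adjusted p lay between 0.000210 and 0.0344 over the 19 alternative settings. Of all genes tested, 3.53% had a lesion effect called higher after chronic than after acute L-DOPA and 1.56% a lower one. With the replicate block 3 members were called, Rasgrp1 with a higher and Rrad and Rasgrp2 with a lower chronic effect, beside 7.30% of all genes higher and 6.13% lower. Without both chronic libraries numbered 2, there were 2, Rasgrp1 and Rrad, with no share of all genes computed for that fit. In the deposited list, Rasgrp1 shares its span with a transcript of Spred1 on the opposite strand. It shares part of that span with AK138908 on its own strand. It shares no exonic base with another gene in the GENCODE annotation, but reads were counted on the deposited list. The part of shared reads in its values was not tested. Rasd1 overlaps transcripts of Med9 on the opposite strand in that list.

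Rasgrp2, a calcium-regulated activator of the Ras relative Rap, moved the other way. It measured 42.8, 46.7 and 54.7 CPM in the acute unlesioned and 39.3, 42.4 and 45.2 CPM in the acute lesioned libraries, which overlapped. In the chronic groups it was 46.8, 42.3 and 43.1 CPM on the unlesioned and 25.4, 21.3 and 33.3 CPM on the lesioned side. All chronic lesioned libraries were below all other libraries of the series. The chronic log2 fold change was -0.72 (SE 0.14, adjusted p = 0.00740), leaving 0.606 of the unlesioned level. The acute value of -0.18 (SE 0.09) had an adjusted p of 0.195, and of 0.0334 with the block. Without each library in turn it ran from -0.26 to -0.08, with adjusted p-values from 0.101 to 0.556. The lesion effect was lower after chronic treatment by 0.54 (SE 0.18), with an adjusted p of 0.116, and of 0.0119 with the block. Without each library in turn this difference ran from -0.74 (without chronic lesioned library 3, adjusted p = 0.0127) to -0.39 (without chronic lesioned library 2, adjusted p = 0.144). With the block, 7 of 8 oligodendrocyte markers rose in the acute lesion comparison, where Rasgrp2 fell, 5 of 8 fell in the chronic one, as did Rasgrp2, and 7 of 8 had a lower chronic lesion effect (median log2 difference -0.56). Without the block, 1 rise in the acute comparison was the sole call among these 3 tests. Their part in the values of Rasgrp2 was not tested. Of the 24 transcripts of Rasgrp2 tested, which can share reads and are not separate evidence, 22 fell in the chronic comparison.

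Rasgrp3, the remaining RasGRP gene, showed no call between the sides. Its levels were 4.53, 3.79 and 3.83 CPM in the acute unlesioned, 5.75, 3.97 and 4.07 in the acute lesioned, 2.57, 3.76 and 2.93 in the chronic unlesioned and 2.27, 3.84 and 2.42 CPM in the chronic lesioned libraries. The sides overlapped in both treatments, with log2 fold changes of 0.19 (SE 0.13, adjusted p = 0.369) and -0.12 (SE 0.20, adjusted p = 0.776).

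The RasGRF genes did not pass the test between the sides either. Rasgrf1, a calmodulin-regulated exchange factor, had 39.0, 40.6 and 42.1 CPM in the acute unlesioned and 37.2, 43.1 and 44.4 CPM in the acute lesioned libraries. The chronic libraries held 54.4, 89.0 and 56.6 CPM on the unlesioned and 53.7, 87.0 and 53.2 CPM on the lesioned side, so that number 2 was high on both. The log2 fold changes between the sides were 0.04 (SE 0.07, 95% interval -0.12 to 0.19) and -0.04 (SE 0.22, 95% interval -0.53 to 0.44). Rasgrf2, its close relative, held 4.84, 4.44 and 4.87 CPM in the acute unlesioned and 4.01, 3.61 and 5.41 CPM in the acute lesioned libraries. It held 4.69, 5.83 and 6.52 CPM in the chronic unlesioned and 4.95, 9.88 and 4.50 CPM in the chronic lesioned libraries, where library 2 was again the highest. Its log2 fold changes were -0.11 (SE 0.12, adjusted p = 0.597) and 0.18 (SE 0.26, adjusted p = 0.713). The acute value was called without acute lesioned library 3 (-0.30, adjusted p = 0.0417).

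**Figure D4:**
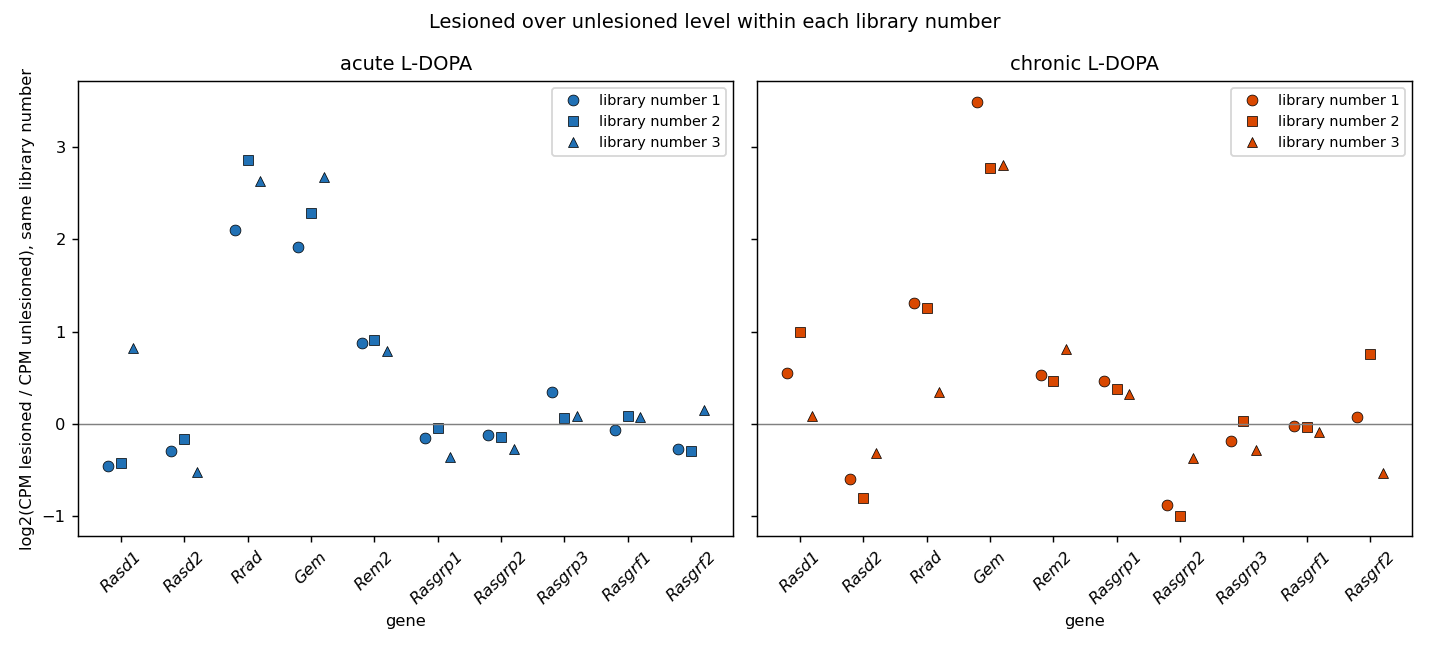
Log2 ratio of lesioned to unlesioned CPM (vertical axis) between libraries with the same number, for each gene, after acute (left) and chronic (right) L-DOPA; a point is 1 library number. Gem, Rrad and Rem2 are above 0 for each number in both treatments, Rasd2 and Rasgrp2 below 0, and Rasgrp1 changes side between the treatments.

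The same libraries were then compared across treatments, within each side. They serve in the lesion comparisons too, so the results are not independent of those above. The chronic groups were injected over 9 days after the same 2 weeks of recovery. Repeated dosing therefore cannot be told apart from the longer time since surgery, here or in the change of lesion effect. A batch of library preparation, which the labels do not name, cannot be told apart from treatment either. In the lesioned striatum 2 members rose from acute to chronic treatment (Rasgrp1 and Rasgrf1) and 3 fell (Rrad, Rasgrp2 and Rasgrp3), beside 12.5% of all genes called higher and 13.1% lower. In the unlesioned striatum only Rasgrf1 was called, as higher, beside 1.07% of all genes higher and 1.99% lower. Rasgrp1 rose on the lesioned side by 0.62 (SE 0.09, adjusted p = 0.000925), with no overlap of libraries, and had a log2 fold change of 0.04 (SE 0.07, 95% interval -0.12 to 0.20, adjusted p = 0.809) on the unlesioned side. Rasgrp2 fell by 0.66 (SE 0.14, adjusted p = 0.00662) on the lesioned side, where the unlesioned value was -0.12 (SE 0.09, adjusted p = 0.456). Rasd1 had a value of 0.82 (SE 0.30) on the lesioned side that was not called (adjusted p = 0.0664). It was called with no filter on low counts (adjusted p = 0.0271), with the replicate block (0.0442) and without acute lesioned library 3 (1.16, adjusted p = 0.0243). Without each library in turn it ran from 0.46 to 1.16, and the adjusted p reached 0.234 over the 13 alternatives. Gem (0.30, SE 0.17, adjusted p = 0.238) and Rem2 (-0.18, SE 0.12, adjusted p = 0.300) were not called in the lesioned striatum.

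**Figure D5:**
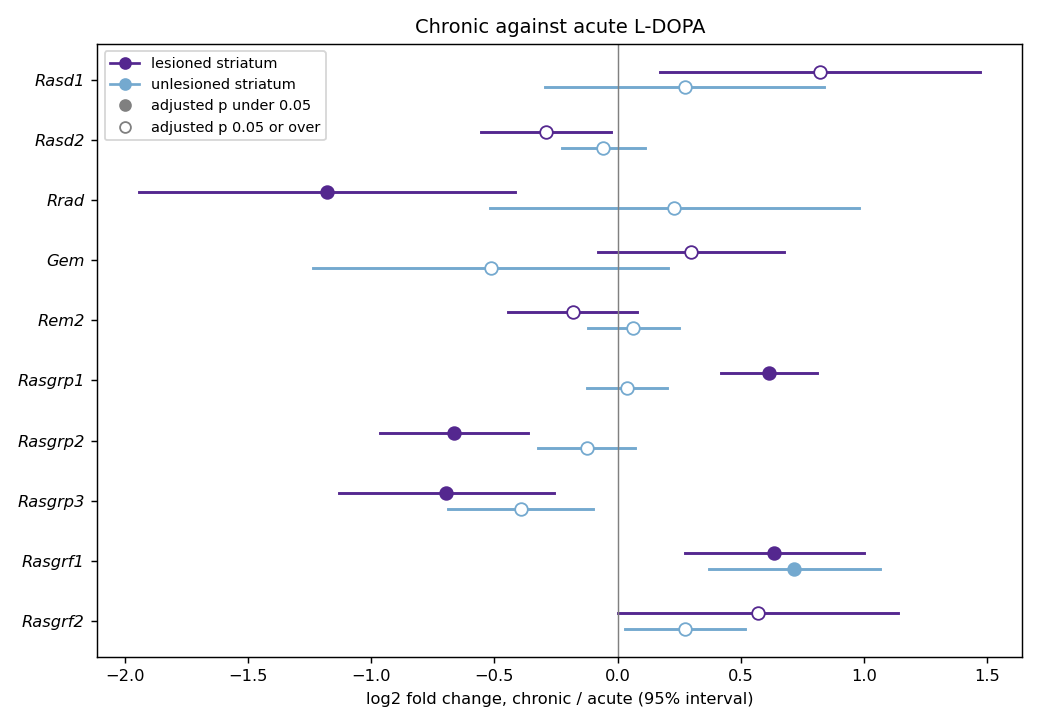
Log2 fold change of chronic over acute L-DOPA (horizontal axis) for each gene in the lesioned (purple) and unlesioned (light blue) striatum, with 95% intervals from edgeR; filled points have an adjusted p under 0.05. Rasgrf1 lies to the right of 0 on both sides, and the point of Rasgrp1 is filled for the lesioned side alone.

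Rasgrf1 rose with chronic treatment on both sides, by 0.64 (SE 0.16, adjusted p = 0.0184) in the lesioned and 0.72 (SE 0.16, adjusted p = 0.0413) in the unlesioned striatum. Every chronic library was above every acute one. The libraries numbered 2 carried much of the size: without chronic lesioned library 2 the lesioned value was 0.37 (adjusted p = 0.00807), and without chronic unlesioned library 2 the unlesioned value was 0.45 (adjusted p = 0.00174). The lesioned call was lost without acute lesioned library 1 (adjusted p = 0.0637) or 2 (0.0574), and with DESeq2 (0.0609). The unlesioned call was lost without acute unlesioned library 1 (0.172), 2 (0.134) or 3 (0.113) or chronic unlesioned library 3 (0.0651), and with DESeq2 (0.0608), a fit over all 12 libraries (0.0535) or transcripts summed per gene (0.0969). The choroid plexus sum was 466 CPM in chronic unlesioned library 2 and 2.40 CPM in chronic lesioned library 2. The sum of 8 oligodendrocyte markers was higher in both chronic libraries numbered 2 (2407 and 2252 CPM) than in the other 4 chronic libraries (1267 to 1765 CPM), and the part of either cell type in the level of Rasgrf1 was not tested.

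Rasgrp3 fell with chronic treatment in the lesioned striatum by 0.70 (SE 0.20, adjusted p = 0.0279). The call was lost without acute lesioned library 1 (adjusted p = 0.111), chronic lesioned library 1 (0.117) or chronic lesioned library 3 (0.102), and with transcripts summed per gene (0.0667). On the unlesioned side the value was -0.39 (SE 0.13, adjusted p = 0.128), and -0.56 without chronic unlesioned library 2 (adjusted p = 0.00705). Glial markers moved with this comparison. All 8 oligodendrocyte markers fell in the lesioned striatum from acute to chronic treatment, their sum going from 2259 to 3738 CPM in the acute to 1267 to 2252 CPM in the chronic lesioned libraries. Of 8 microglial markers 6 fell, with sums of 84.1 to 98.8 and 53.2 to 67.6 CPM, and of 7 astrocyte markers 4 fell (597 to 770 and 626 to 655 CPM). Acute lesioned library 1, the highest for Rasgrp3, was also the highest for oligodendrocyte markers. In the same comparison 2 of 10 medium spiny neuron markers rose and 3 fell, and 2 of 3 blood markers fell. The part of these cell types in the 3 falls, of Rrad, Rasgrp2 and Rasgrp3, was not tested.

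Cortical tissue, which borders the striatum, was looked for by its markers. The sum of 9 cortical glutamatergic markers was low everywhere, between 6.59 and 48.4 CPM. It ran from 18.1 to 36.7 CPM in the acute unlesioned, 8.44 to 22.8 in the acute lesioned, 11.2 to 48.4 in the chronic unlesioned and 6.59 to 28.0 CPM in the chronic lesioned libraries. In the acute lesion comparison 1 of the 9 rose and 1 fell, and in the chronic one the adjusted p-values of the 8 tested ran from 0.167 to 0.687 in edgeR. With the replicate block 2 of the 9 rose and 6 fell after acute treatment, and 4 of the 8 fell after chronic treatment. Without the block their median log2 fold changes were -1.11 and -1.49. The part of cortical RNA in the lesion effects of the members was not tested.

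Other genes of the pathway were counted in 6 lists: the classical Ras proteins, other Ras-like GTPases, other exchange factors, GTPase-activating proteins, effectors, and the Sprouty and Spred inhibitors. Of these 54 genes 52 were tested in the acute comparison, of which 3 rose and 8 fell, and 51 in the chronic one, of which 9 rose and 5 fell. Over all genes, 8.16% were called higher and 7.16% lower in the acute comparison, and 8.46% and 5.20% in the chronic one. With the replicate block 4 of the listed genes rose and 13 fell after acute and 10 rose and 9 fell after chronic L-DOPA, beside 13.2% of all genes called higher and 11.8% lower, and 12.8% and 11.4%, in those fits. Their median log2 fold changes were -0.03 and 0.03. Among 13 other Ras-like GTPases tested after a single dose 2 rose and 1 fell, and of 12 tested after chronic treatment 5 rose and 1 fell. Of 6 Sprouty and Spred genes tested, 1 rose and 3 fell after acute and 1 fell after chronic L-DOPA. Of 10 GTPase-activating proteins, which return Ras to its inactive state, 1 fell after acute and 2 after chronic treatment.

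Of the listed genes with a called change of at least 1.5-fold in a lesion comparison, at most 3 per list and comparison are named. Rasl11a, a Ras-like GTPase found in the nucleolus, went from 0.294 ± 0.0602 to 0.639 ± 0.146 CPM (SD, n = 3) with the acute lesion and from 0.348 ± 0.0351 to 6.00 ± 0.494 CPM with the chronic one. Its log2 fold changes were 1.11 (SE 0.22, adjusted p = 0.00664) and 4.10 (SE 0.13, adjusted p = 2.22e-08), the latter above that of Gem. Rasl11b, its relative, had an acute value of 0.10 (SE 0.08, adjusted p = 0.457) and rose by 1.15 (SE 0.19, adjusted p = 0.00288) after chronic treatment. Rheb, the GTPase that activates mTORC1, rose in both, by 0.59 (SE 0.06, adjusted p = 3.33e-05) and 1.14 (SE 0.08, adjusted p = 7.37e-06). Rasgef1b, an exchange factor, rose by 1.06 after chronic treatment (SE 0.17, adjusted p = 0.00214) and had an acute value of -0.01 (SE 0.07). Spred1, an inhibitor of the Ras-Erk cascade, fell by 0.78 after a single dose (SE 0.07, adjusted p = 2.58e-05), and its chronic value of -0.13 (SE 0.08) was not called (adjusted p = 0.359).

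The genes whose levels followed the members most closely over the 12 libraries were sought among 12794 genes with a mean of at least 1 CPM, by Pearson's r of log2(CPM + 0.5). These are descriptions over libraries that share the 4 groups. Gem was most like Morf4l2 (r = 0.988), Gnai3 (0.982) and the early response gene Nr4a3 (0.982). Rrad was most like Snrpc (0.959), Pde12 (0.946) and Nes (0.938). Rem2 was closest to Sra1 (0.964), Malat1 (0.961) and Ppp1r15a (0.961). Rasgrp2 was closest to Tbc1d17 (0.975) and Cited4 (0.971).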

How the data were processed

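RNA of striatal punches was made into libraries with an Illumina TruSeq kit, and the study mapped the reads to mm9 with Genomatix software and compared triplicates with DESeq. The authors deposited raw read counts per transcript, without normalization, beside normalized values and tables of their own comparisons (fold changes and p-values), which were not used; 48 columns of per-sample values were left out. The deposited transcript length served for CPM per kilobase. In all, 189660 transcripts were listed, and the 296 that name no gene, with 0.0485% of counts, were dropped. Whether counting used strand is not given in the sources used here.

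The counts were tested with glmQLFit and glmQLFTest of edgeR 4.0.16, after filterByExpr and TMM (R 4.3.3, limma 3.58.1), on the 6 libraries compared or on all 12 for the interaction, and adjusted by Benjamini-Hochberg over all transcripts tested (129674 in the acute comparison). SE is the log2 fold change divided by the root of F. Shares of all genes use 1 transcript per gene. The main fit of the acute comparison was run on simulated counts with known changes, and the outcome is not reported here. The 10 members and the lists were chosen with earlier results of these data known. Named outside the 10 were list genes called in a lesion comparison at 0.585 or more on the log2 scale, at most 3 per list and comparison, and the 3 genes most correlated with each of the 4 members that changed most; 1 of these correlated genes is not reported here. Libraries with the same number on the 2 sides departed from their groups together. Their correlations over 12794 genes were 0.478, 0.444 and 0.390 after acute and 0.519, 0.566 and 0.153 after chronic L-DOPA. All lay over the pairing limit of 0.1. So did libraries numbered 3 in different treatments, at 0.249 on the lesioned and 0.145 on the unlesioned side. These values therefore do not settle which libraries share a mouse. The series text counts a mouse per library, while the study takes the unlesioned side as the control within a mouse. If libraries of a group share mice, p-values measure only the spread between libraries. With 3 against 3 an exact permutation test cannot go below 0.10, and none was run. No 2 libraries of a group were copies, since the chi-square of their counts, per degree of freedom, was 5.41 to 19.7. A total of 3 counts corresponds to 0.0171 to 0.0347 CPM per library; intervals cover the spread between libraries. Alternatives were DESeq2 1.42.0 and its size factors, no filter, an adjusted p under 0.01, the replicate block, all 12 libraries in a joint fit, a single or the summed transcript per gene, and leaving out each library. Leaving out both chronic libraries numbered 2 was added after seeing the data. Python 3.11.15, pandas 2.3.3, numpy 2.4.6 and matplotlib 3.10.9 made tables and figures.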

Additional observations from a re-analysis of the deposited data

Results flagged for a closer look

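A group holds 3 libraries, too few for a test of a single outlying library. What stood out was a lesion effect that differed between acute and chronic L-DOPA by the interaction test. Among the 10 members this was Rasgrp1, whose log2 fold change between the sides was 0.58 higher after chronic treatment (SE 0.12, adjusted p = 0.0104 in edgeR). With the replicate block Rrad (-1.47, adjusted p = 0.0219) and Rasgrp2 (-0.57, adjusted p = 0.0119) were called as well.

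The other named genes of the pathway were flagged in the same way. The chronic lesion effect was higher than the acute one by 2.99 for Rasl11a (SE 0.26, adjusted p = 5.25e-06), by 1.05 for Rasl11b (SE 0.23, adjusted p = 0.0167, and 0.0507 without chronic lesioned library 1), by 0.55 for Rheb (SE 0.09, adjusted p = 0.00181) and by 1.07 for Rasgef1b (SE 0.20, adjusted p = 0.00584) in edgeR's test. For Spred1 it was 0.65 higher (SE 0.11, adjusted p = 0.00255), from a fall after acute treatment to no call after chronic treatment. A transcript of Spred1 overlaps the span of Rasgrp1 in the deposited list, and the part of shared reads was not tested. These genes were named because of their lesion effects, so the flags are no independent evidence.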

How the results depend on the processing

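Of 720 recomputed log2 fold changes of the members, 650 kept their direction and side of the threshold, 29 lost a call, 17 gained one and 24 changed sign, none of these last in a called value. The cause was not tested for any of these changes. The 4 acute calls became 3 to 5 over the alternatives, and 3 to 4 without each library in turn. These are totals: the 4 without acute lesioned library 3 included Rasgrf2 and not Rasd2. The 5 chronic calls became 6 with DESeq2, with its size factors and with no filter, 7 with the replicate block, 2 at an adjusted p under 0.01, 5 without both chronic libraries numbered 2 and 3 to 5 without each library in turn (3 without chronic unlesioned library 1). Between treatments in the lesioned striatum, the 5 calls became 4 with DESeq2, 6 with no filter, 3 with transcripts summed, 2 at an adjusted p under 0.01 and 3 to 5 without each library (3 without acute lesioned library 1 or 2 or chronic lesioned library 1 or 3). In the unlesioned striatum the 1 call (Rasgrf1) became 0 with DESeq2 (3 members at an unadjusted p under 0.05), in edgeR's fit over all 12 libraries (1 member), in edgeR with transcripts summed (3 members) and at an adjusted p under 0.01 (3 members), and 0 to 2 without each library (0 without any acute unlesioned library or chronic unlesioned library 3, with 1 to 3 members at an unadjusted p under 0.05, and 2 without chronic unlesioned library 2). The 1 interaction call became 0 at an adjusted p under 0.01 (3 members at an unadjusted p under 0.05 in edgeR, 4 in DESeq2), 3 with the replicate block, 2 without both chronic libraries numbered 2, and 1 to 2 without each library (2 without chronic lesioned library 2 or 3). The block by library number within a treatment changed no lesion call but those given for Rasd1, Rrad and Rasgrp2. Across treatments the numbers are only shared (correlations from -0.163 to 0.249), and the block gave 6 and 1 calls on the lesioned and unlesioned side. Shares of all genes were computed only for the main fits and for the block in the acute, chronic and interaction comparisons. The other counts therefore have no share beside them.

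Changes of sign occurred in values that were not called. For acute Rasd1 they were -0.0061 with no filter, -3.72e-06 with a single transcript per gene and -0.0018 with transcripts summed, and from -0.34 to 0.46 without each library. Without both chronic libraries numbered 2, Rasgrf2 was -0.24 in the chronic comparison and -0.13 in the interaction. Without each library the acute values ran from -0.0089 to 0.28 for Rasgrp3, -0.013 to 0.11 for Rasgrf1 and -0.080 to 0.047 for Rasgef1b. The chronic ones ran from -0.39 to 0.049 for Rasgrp3, -0.31 to 0.22 for Rasgrf1 and -0.26 to 0.39 for Rasgrf2. In the unlesioned striatum they ran from -0.10 to 0.0051 for Rasd2, -0.18 to 0.41 for Rrad and -0.0074 to 0.10 for Rasgrp1, and in the interaction from -0.35 to 0.19 for Rasgrf1 and -0.15 to 0.50 for Rasgrf2. Depth limits Rrad most, with 11 to 80 counts per library.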
